A study of Homo sapiens with 6 samples.

Results

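Transcripts of 35 genes of the actin cytoskeleton and of focal adhesions were examined in MDA-MB-231, an established line of human breast cancer, after exposure to H182, which the series title places among azetidine-based inhibitors of the transcription factor STAT3. The genes were listed by name, and all 35 were found once each by symbol among 27451 gene rows. The comparison was of 3 libraries from cells given the vehicle DMSO and 3 libraries from cells given 2 µM of the compound, both for 2 h. All 6 libraries came from this 1 established line at 1 dose and 1 time, and the labels do not say whether replicates were separate cultures. The p-values therefore refer only to how much these libraries varied, part of which may be technical. Values are TPM, which give each transcript's share of its library after division by length, scaled to a total of 1000000, and the number of reads behind them is unknown.

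Actin monomers assemble into polar filaments that are nucleated, elongated, capped, severed and bundled by dedicated proteins. Non-muscle myosin II pulls on these filaments, and focal adhesions couple them through talin and vinculin to integrins at the cell surface. Many genes of this machinery are known targets of serum response factor (SRF), which binds the CArG box and is activated by its partners MRTF-A and MRTF-B when free actin monomer is low. In mesenchymal-like breast cancer cells such as MDA-MB-231, these proteins are known for their part in spreading and migration.

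None of the 34 tested members rose and 17 fell in TPM, all by small amounts, and vinculin (VCL) fell most, to 0.788 of its DMSO level. The test was limma on log2(TPM + 1) across the 12294 genes whose mean reached 1 TPM, with Benjamini-Hochberg adjustment over all of them and a threshold of 0.05. Genes are said to have risen or fallen where they passed it. Of all tested genes 18.7% were lower and 5.3% were higher by the same rule. The median change of the members was -0.12 on the log2 scale, and that of all tested genes was -0.09. The summed share of HSPA1A, HSPA1B and DNAJB1, which are heat shock genes, was 0.0505% of each DMSO library on average and 2.66% of each H182 library. When totals were taken without 5 heat shock genes, the medians were -0.08 for the members and -0.05 for all tested genes. With median-of-ratios scaling, which sets the typical gene to no change, the median of all tested genes was 0.00 and that of the members -0.02. Of the members 2 were then lower, VCL and CAPZA1, and none higher, while 6.79% of all tested genes were lower and 7.91% higher.

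The error of the change was smaller for abundant transcripts. The median standard error of the log2 change was 0.040 for the 25 members with a mean of at least 100 TPM, 0.076 for the 9 less abundant tested members and 0.084 for all tested genes. Of the members at or above 100 TPM, 16 fell, or 64% of them, while 35.2% of all 1864 tested genes at that level fell. With median-of-ratios scaling the corresponding shares were 4% and 11.6%. The 100 TPM boundary was chosen after the values were seen. The 95% interval of every tested member, unadjusted for multiple tests, lay within 1 of no change on the log2 scale, so that a change of 2-fold lay outside each of them. Among the 17 members that did not pass, the intervals spanned -0.41 to 0.34.

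In deposited TPM, groups of libraries did not overlap for 21 of the 34 tested members, all with H182 lower. Of all tested genes, 32.7% were separated in that direction and 8.67% in the other. Together the 35 transcripts summed to 27797, 28249 and 28217 TPM in the DMSO libraries and to 24704, 25565 and 25556 TPM in the H182 libraries. Their part of all TPM was thus 2.81% and 2.53%. The lowest DMSO sum was above the highest H182 sum, with a ratio of means of 0.900. With median-of-ratios scaling the ratio was 0.967. Smaller transcript shares in bulk RNA do not tell apart fewer cells of a kind, less of these RNAs per cell and more RNA of other genes.

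**Figure D1:**
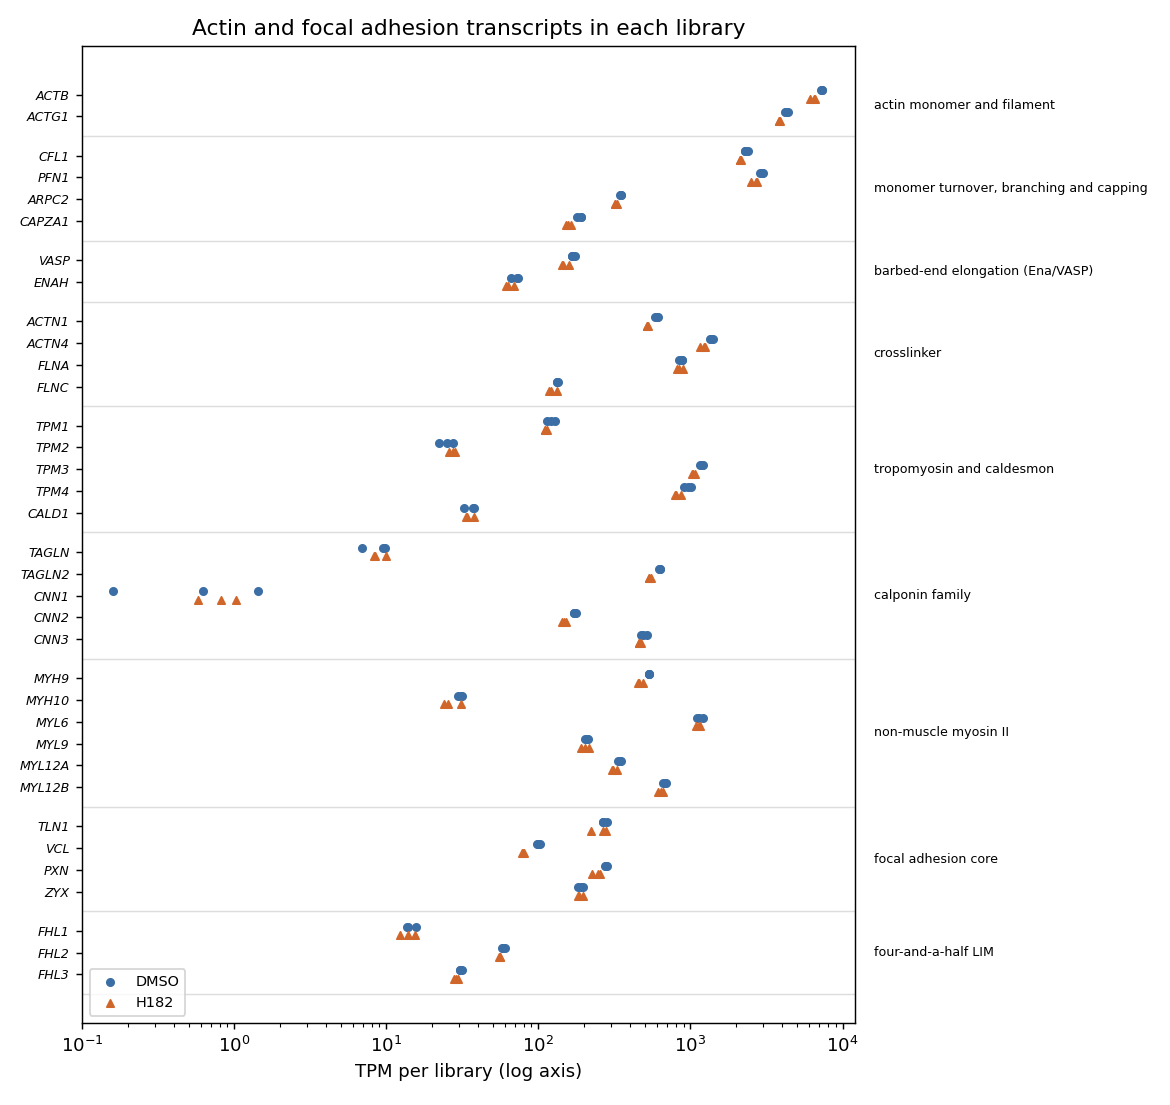
TPM of each member in each library on a log axis, grouped by role, with DMSO as circles and H182 as triangles. The members span from CNN1, at 0.16 to 1.44 TPM, to ACTB, at 6143 to 7370 TPM, and the groups lie close together throughout.

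**Figure D2:**
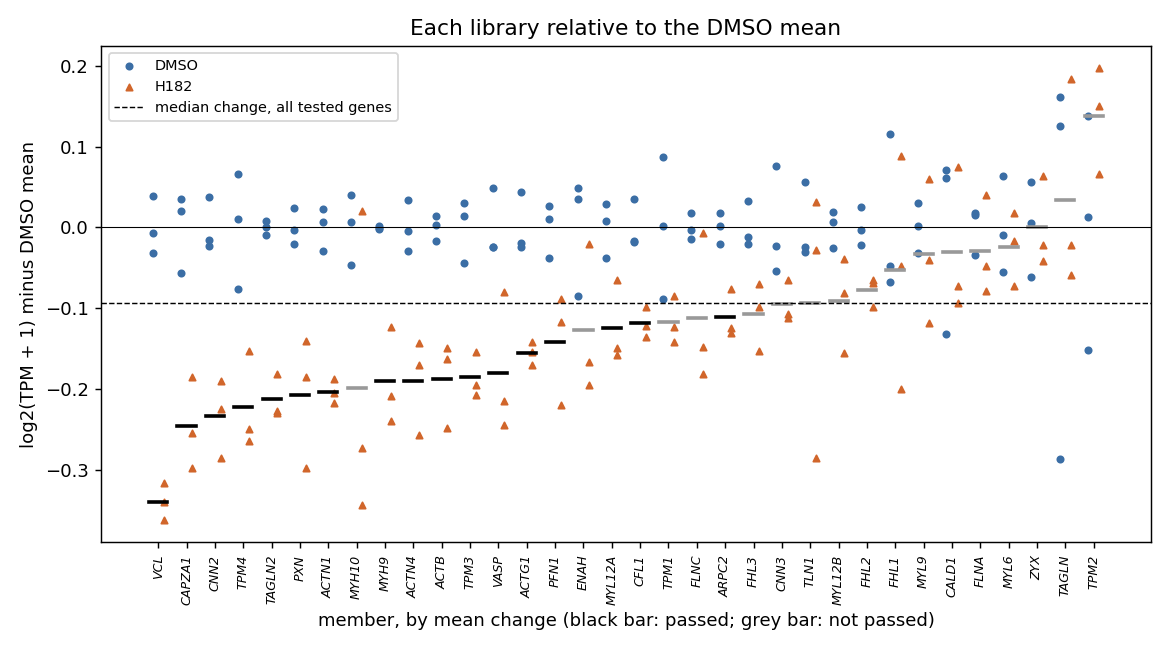
Each library's log2(TPM + 1) minus the DMSO mean of that gene, for the 34 tested members ordered by their mean change. The bars mark the H182 mean (black where the gene passed), and most bars lie near or below the dashed median of all tested genes at -0.09; VCL stands lowest at -0.34.

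The promoters of the members were searched for the CArG box, the site that SRF binds, since it links these genes in textbook accounts. RefSeq windows on GRCh38.p14, from 250 bases before to 50 after each annotated start, were matched for 32 members (66 windows), and ACTB, TAGLN and MYL9 were not matched. A CArG box stood in at least 1 window of 7 of the 32 members, or 21.9%, and in 1.53% of the 9188 tested genes with a window. By window, the shares were 13.6% of 66 and 1.29% of all 35116. Genes can have several windows, and windows of neighbouring starts share bases. A match is a description of letters and not a measured site. The boxes are given in capitals, 5′ to 3′ on the strand of the gene, with 30 bases on either side, or 10 where the wider stretch overlaps an annotated exon. The 4 shorter stretches, of ACTG1, FLNA, FHL1 and the second start of FHL2, still overlap annotated exons.
ACTG1, chr17:81512874-81512903, minus strand, box from 94 bases before the start: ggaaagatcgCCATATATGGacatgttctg
ACTN1, chr14:68977698-68977767, minus strand, 171 bases before: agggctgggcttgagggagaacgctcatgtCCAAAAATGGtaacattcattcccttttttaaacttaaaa
CNN2, chr19:1026489-1026558, plus strand, 89 bases before: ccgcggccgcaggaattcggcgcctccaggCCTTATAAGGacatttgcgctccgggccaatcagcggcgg
TPM4, chr19:16067335-16067404, plus strand, 173 bases before: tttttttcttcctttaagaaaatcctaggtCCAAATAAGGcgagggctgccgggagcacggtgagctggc
FLNA, chrX:154374709-154374738, minus strand, 94 bases before: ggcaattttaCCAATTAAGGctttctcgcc
FHL1, chrX:136196911-136196940, plus strand, 126 bases before: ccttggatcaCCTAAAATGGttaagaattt
FHL2, chr2:105438575-105438644, minus strand, 101 bases before: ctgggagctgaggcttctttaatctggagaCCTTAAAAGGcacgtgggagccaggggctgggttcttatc
FHL2, second start, chr2:105399091-105399120, minus strand, 59 bases before: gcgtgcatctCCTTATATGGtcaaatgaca

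Of the 7 members with such a box, ACTG1, ACTN1, CNN2 and TPM4 fell in TPM and FLNA, FHL1 and FHL2 did not pass, with a median change of -0.16. Of the 24 tested members with a window and no box, 12 fell, with a median of -0.12. None of the 7 passed with median-of-ratios scaling. The heat shock element GAANNTTCNNGAA was in no window of the 32 members and in 0.501% of tested genes, and TTCNNNGAA, the palindrome that STAT factors bind, was in windows of FHL2 and PXN (6.25% of members, 8.51% of tested genes). TGACTCA, an AP-1 site, was in windows of FHL1 and TAGLN2 (6.25% and 4.81%). GGAATG, a TEAD site, was in windows of 12 members (37.5% and 14.99%), but by window the shares were closer, at 19.7% for members and 14.03% for all. Both strands were searched, and the TTCNNNGAA and heat shock patterns can share letters.

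The cytoplasmic actins were the most abundant members, with β-actin (ACTB) at rank 3 and γ-actin (ACTG1) at rank 11 of all gene rows by mean TPM. ACTB (ENSG00000075624.13, chromosome 7, 5527147 to 5563784, minus strand) was at 7212, 7370 and 7317 TPM in DMSO and at 6143, 6579 and 6519 TPM in H182. Every H182 library lay below every DMSO library, and H182 replicate 1 was the lowest. The log2 change was -0.19 (SE 0.034, limma adjusted p = 0.00382). ACTG1 (ENSG00000184009.9, chromosome 17, 81509971 to 81523847, minus strand) was at 4203, 4407 and 4220 TPM in DMSO and at 3841, 3800 and 3875 TPM in H182. Its groups did not overlap either, and the change was -0.16 (SE 0.031, adjusted p = 0.00602). With median-of-ratios scaling the changes were -0.08 and -0.05 and neither passed (adjusted p = 0.160 and 0.366). The 2 genes encode near-identical proteins and can share reads, so their division is less certain than their sum, which went from 11576 ± 184 to 10252 ± 232 TPM (SD, n = 3 each). ACTB held 63.1 ± 0.434% of that sum in DMSO and 62.5 ± 0.945% in H182, and these ranges overlapped.

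Among the genes of monomer turnover, branching and capping, all 4 members fell in TPM. CAPZA1, the α1 subunit of the capping protein that blocks growth at the barbed end (ENSG00000116489.12, chromosome 1, 112619173 to 112671619, plus strand), was at 179, 191 and 189 TPM in DMSO and at 152, 156 and 164 TPM in H182. All H182 values were below all DMSO values, with a log2 change of -0.25 (SE 0.045, adjusted p = 0.00427). It was also lower with median-of-ratios scaling (-0.14, adjusted p = 0.0390), but not when a replicate term was added to that scaling (adjusted p = 0.0610). CAPZA1 shares 624 exonic bases with ST7L on the opposite strand, whose mean went from 33.4 TPM to 35.0 TPM. The strand setting of the counting was not given in the sources used here, so reads of such pairs cannot be told apart. Cofilin (CFL1), which severs filaments, changed by -0.12, profilin (PFN1), which feeds monomers to growing ends, by -0.14, and ARPC2, a subunit of the branching Arp2/3 complex, by -0.11. With median-of-ratios scaling these 3 did not pass, at changes of -0.02, -0.04 and -0.01. Their falls in TPM were also lost on leaving out single libraries: CFL1 without DMSO replicate 3 (adjusted p = 0.0873), PFN1 without DMSO replicate 1 or 3 or H182 replicate 1 or 2 (0.0581 to 0.0969), and ARPC2 without any 1 library other than H182 replicate 1 (0.0760 to 0.131).

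VASP, which speeds elongation at barbed ends, fell from 169 ± 5.03 to 149 ± 9.31 TPM (log2 change -0.18, adjusted p = 0.0318), a fall lost without any 1 library other than H182 replicate 2 (adjusted p = 0.0594 to 0.0980). Its relative ENAH was at 70.5 ± 3.6 and 64.5 ± 4.33 TPM, and the groups overlapped. Of the crosslinkers, the α-actinins fell together: ACTN1 was at 609, 602 and 587 TPM in DMSO and at 515, 526 and 520 TPM in H182 (log2 change -0.20), and ACTN4 went from 1379 ± 30.3 to 1209 ± 49.0 TPM (-0.19). With median-of-ratios scaling neither α-actinin passed, at changes of -0.10 and -0.09. The filamins, which join filaments into networks, did not pass in TPM. FLNA was at 866 ± 17.4 and 849 ± 36.8 TPM with overlapping groups, and FLNC was at 133 ± 1.55 and 124 ± 8.11 TPM, and it was lower without H182 replicate 3 (-0.16, adjusted p = 0.0271). The ratio of ACTN1 to ACTN4 stayed close, with ACTN1 at 30.3 ± 0.796% of their sum in DMSO and 30.1 ± 0.733% in H182.

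Tropomyosins wrap along the filament and set which myosins and severing proteins reach it. TPM3 fell from 1189 ± 32.2 to 1045 ± 20.5 TPM (log2 change -0.19) and TPM4 from 958 ± 47.3 to 821 ± 34.8 TPM (-0.22). With median-of-ratios scaling neither passed, at -0.08 for TPM3 and -0.12 for TPM4. TPM1, at 121 ± 7.47 and 112 ± 2.29 TPM, did not pass (-0.12, adjusted p = 0.132). TPM2, the least abundant of the 4, had the highest log2 change of any member, 0.14, and did not pass (adjusted p = 0.262). It was at 22.1, 24.9 and 27.2 TPM in DMSO and at 28.4, 27.5 and 25.9 TPM in H182, with overlapping groups. As a share of the 4 tropomyosins, a measure that scaling of the library does not touch, TPM2 was at 1.08 ± 0.0769% in DMSO and 1.36 ± 0.0985% in H182. Caldesmon (CALD1), which binds actin and tropomyosin, was at 35.8 ± 2.84 and 35.0 ± 2.33 TPM.

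The calponin family, actin-binding proteins with a calponin homology domain, was carried by non-muscle members. TAGLN2 fell from 626 ± 3.78 to 540 ± 10.3 TPM (log2 change -0.21, adjusted p = 0.00138). With median-of-ratios scaling TAGLN2 changed by -0.11 and did not pass (adjusted p = 0.0689). CNN2 fell from 173 ± 4.04 to 147 ± 4.96 TPM (-0.23, adjusted p = 0.00383), and by the median-of-ratios scale it changed by -0.13 and did not pass (adjusted p = 0.0557). CNN3 was at 484, 519 and 474 TPM in DMSO and at 470, 457 and 455 TPM in H182 and did not pass (-0.09, adjusted p = 0.123). CNN2 held 26.0 ± 0.457% of the calponin sum in DMSO and 24.2 ± 0.679% in H182. The smooth muscle genes were low: TAGLN was at 6.88 to 9.92 TPM over all libraries, and CNN1, at 0.16 to 1.44 TPM, was under the minimum mean and was the 1 member not tested. TAGLN shares 446 exonic bases with PCSK7 on the opposite strand, whose mean over all libraries, 23.9 TPM, was above that of TAGLN, 8.79 TPM, and without the strand setting their reads cannot be told apart either.

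**Figure D3:**
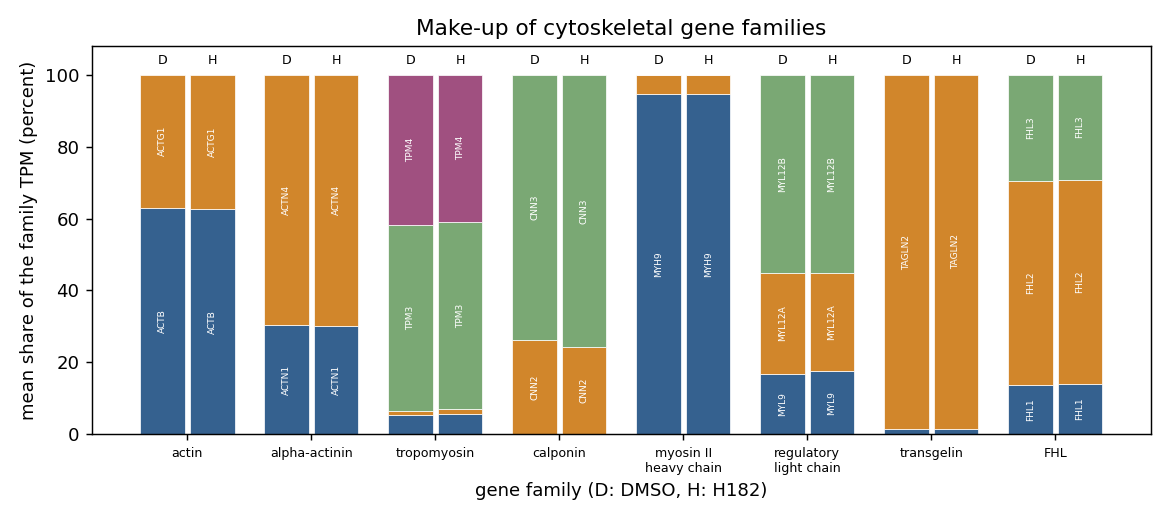
Mean share of each gene in the summed TPM of its family, in percent, for DMSO (D) and H182 (H), with 3 libraries each. The bars are alike within each family; the calponin bars differ most, with CNN2 at 26.0% and 24.2%.

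Across 12 families with 33 genes (members and 6 relatives), shares did not overlap between the groups for 5 genes: TPM2, CNN2, CNN3, and the relatives MYH14 and CFL2. The shares are given as a description and were not tested. Those within a family add up to the whole and so move together, and no difference is read from 5 such separations among 33 shares. MYH14 was below 0.1% of its family in all libraries.

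Non-muscle myosin II is a hexamer of heavy chains with regulatory and essential light chains. Its main heavy chain gene, MYH9, fell from 532 ± 0.716 to 467 ± 19.6 TPM (log2 change -0.19, adjusted p = 0.00625). With median-of-ratios scaling MYH9 changed by -0.09 and did not pass (adjusted p = 0.115). MYH10 was at 29.7, 31.6 and 30.8 TPM in DMSO and at 25.2, 24.0 and 31.2 TPM in H182, with H182 replicate 3 inside the DMSO range, and did not pass (-0.20, adjusted p = 0.154). Without that library its change was -0.31 (adjusted p = 0.0152). On the opposite strand of MYH10 lies NDEL1, with 72 shared exonic bases, which went from 50.4 to 76.6 TPM. Of the regulatory light chains, MYL12A fell by 0.12 on the log2 scale (adjusted p = 0.0463; 0.0597 to 0.141 without any 1 library other than H182 replicate 2), while MYL12B (-0.09) and MYL9 (-0.03) did not pass. With quantile normalization MYL12B was lower (-0.17, adjusted p = 0.00814) and MYL12A did not pass (-0.10, adjusted p = 0.123). MYL12A and MYL12B are close copies and may share reads. The essential light chain MYL6 was at 1149 ± 48.0 and 1130 ± 35.4 TPM. Summed over the 6 genes, the ratio of H182 to DMSO was 0.945, and 1.02 with median-of-ratios scaling.

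At the focal adhesion, VCL had the largest change of any member in deposited TPM and passed under every alternative that was run, from -0.36 to -0.24. It was not the largest under each: with quantile normalization ACTB changed by -0.64 and VCL by -0.26, and with median-of-ratios scaling TPM2, which did not pass, changed by 0.24. Vinculin binds talin under tension and ties it to actin. VCL (ENSG00000035403.16, chromosome 10, 73995193 to 74121363, plus strand, up to 23 exons) was at 97.6, 102 and 99.2 TPM in DMSO and at 77.4, 79.9 and 78.6 TPM in H182. The lowest DMSO library was well above the highest H182 library. The log2 change was -0.34 (SE 0.043, adjusted p = 0.000591), and -0.24 with median-of-ratios scaling (adjusted p = 0.00475). A lower change than that of VCL was found in 8.87% of all tested genes. VCL shares 1109 exonic bases with AP3M1 on the opposite strand, which was at 46.0 and 41.5 TPM (log2 change -0.14, adjusted p = 0.0893).

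Among the partners of vinculin, paxillin (PXN), a scaffold of adhesion signalling, fell from 279 ± 4.30 to 242 ± 13.4 TPM (-0.21, adjusted p = 0.0102). With median-of-ratios scaling PXN changed by -0.10 and did not pass (adjusted p = 0.113). Talin (TLN1), which activates integrins, was at 267, 282 and 266 TPM in DMSO and at 223, 266 and 278 TPM in H182. Of its H182 libraries only replicate 1 was low, and it did not pass (-0.09, adjusted p = 0.386). Zyxin (ZYX), a LIM protein that marks mature adhesions and repairs stress fibres, had the same mean TPM in both groups to 3 digits. It was at 189 ± 7.81 and 189 ± 7.48 TPM, with a 95% interval of the log2 change from -0.10 to 0.10. With median-of-ratios scaling ZYX changed by 0.10 and did not pass (adjusted p = 0.198). The FHL genes encode LIM-domain cofactors found at adhesions and in the nucleus. FHL1, FHL2 and FHL3 did not pass (-0.05, -0.08 and -0.11). For FHL2 the groups nonetheless did not overlap, at 57.9, 59.9 and 58.7 TPM in DMSO and at 54.9, 56.2 and 56.0 TPM in H182. Nor did they for FHL3, at 30.46 to 31.65 TPM in DMSO and 27.71 to 29.41 TPM in H182. The same held for CNN3 and MYL12B, which also did not pass.

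**Figure D4:**
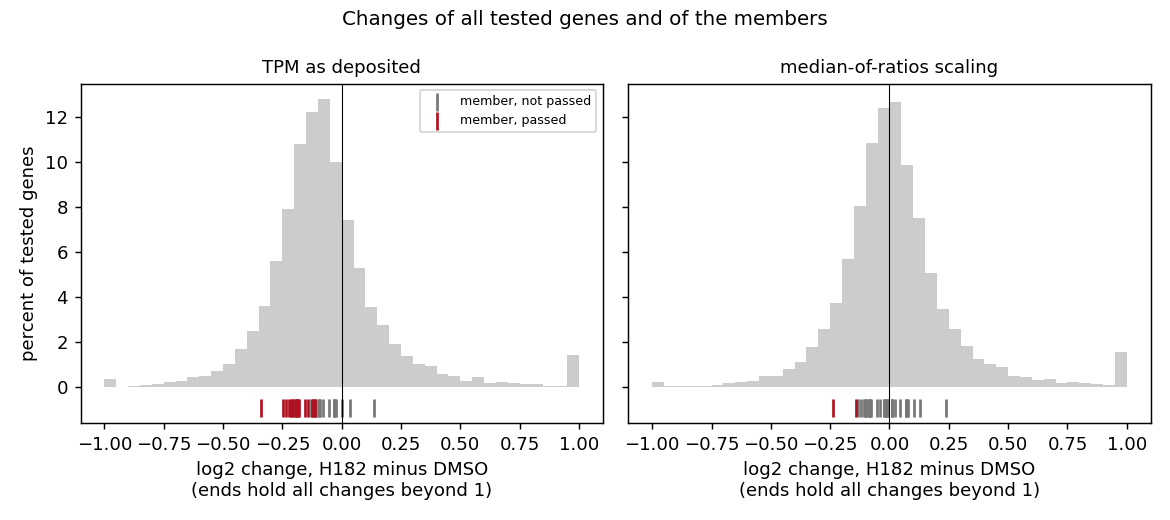
Distribution of log2 changes of all 12294 tested genes (grey, percent of genes in steps of 0.05) with members as ticks beneath, red where they passed, in TPM as deposited (left) and with median-of-ratios scaling (right). The members lie within the bulk of all genes on both sides, with 17 red ticks on the left and 2 on the right.

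Other genes of the same machinery were taken from lists. Of 40 tested genes of actin turnover outside the members, none rose and 23 fell (4 with median-of-ratios scaling), with a median change of -0.18. In TPM the falls made up 57.5% of this list, against 18.7% of all tested genes and 35.2% of those at 100 TPM or more. Median-of-ratios scaling left 10% of the list lower, which lay between the corresponding 6.79% and 11.6%. The median level of the list was 114 TPM. ANLN, an actin-binding scaffold of cytokinesis, fell from 359 ± 8.64 to 282 ± 3.44 TPM (-0.35). CFL2, a cofilin, changed by -0.27, CORO1C, a coronin, by -0.25 and the Arp2/3 subunit gene ARPC4 by -0.23, and all but ARPC4 also passed with median-of-ratios scaling.

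Of 40 other focal adhesion genes tested, 3 rose and 11 fell (5 and 7 by median-of-ratios scaling), at a median of -0.15. The falls were 27.5% and 17.5% of the list by the 2 scalings, beside 18.7% and 6.79% of all tested genes. Of all tested genes 5.3% and 7.91% were higher. CSRP2, a LIM protein that binds α-actinin, rose from 45.2 ± 0.499 to 76.7 ± 1.2 TPM (0.75, adjusted p = 3.15e-06). The other rises, named after their values were seen, were NEDD9, a scaffold of the p130Cas family (0.76), and TES, a partner of zyxin (0.28, adjusted p = 0.0460). The rise of TES was lost without DMSO replicate 2 or 3 or H182 replicate 2 or 3 (adjusted p = 0.109 to 0.133). In contrast BCAR1, which encodes p130Cas itself, fell from 82.0 ± 1.38 to 59.1 ± 3.83 TPM (-0.47), the LIM gene AJUBA fell from 154 ± 10.3 to 106 ± 5.74 TPM (-0.53) and the phosphatase gene PTPN12 changed by -0.35. With all libraries, these falls and rises also passed with median-of-ratios scaling.

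For the other filament systems, 3 of 23 tested tubulin, lamin, keratin and related genes rose and 11 fell (3 and 6 with median-of-ratios scaling), median -0.17. By TPM 47.8% of this list fell, beside 18.7% of all tested genes and 35.2% of those at 100 TPM or more. After median-of-ratios scaling the share was 26.1%, beside 6.79% and 11.6%. The median level of the list was 225 TPM. TUBB2A rose from 53.9 ± 1.83 to 83.6 ± 2.41 TPM (0.63), TUBA1A by 0.50 and TUBB3, named after its value was seen, by 0.35. LMNB1, lamin B1, fell from 270 ± 4.57 to 181 ± 5.93 TPM (-0.57), and the abundant tubulin gene TUBB from 2510 ± 25.8 to 2053 ± 47.9 TPM (-0.29). Tubulin genes are close copies that may share reads. No list was tested as a whole against the members.

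**Figure D5:**
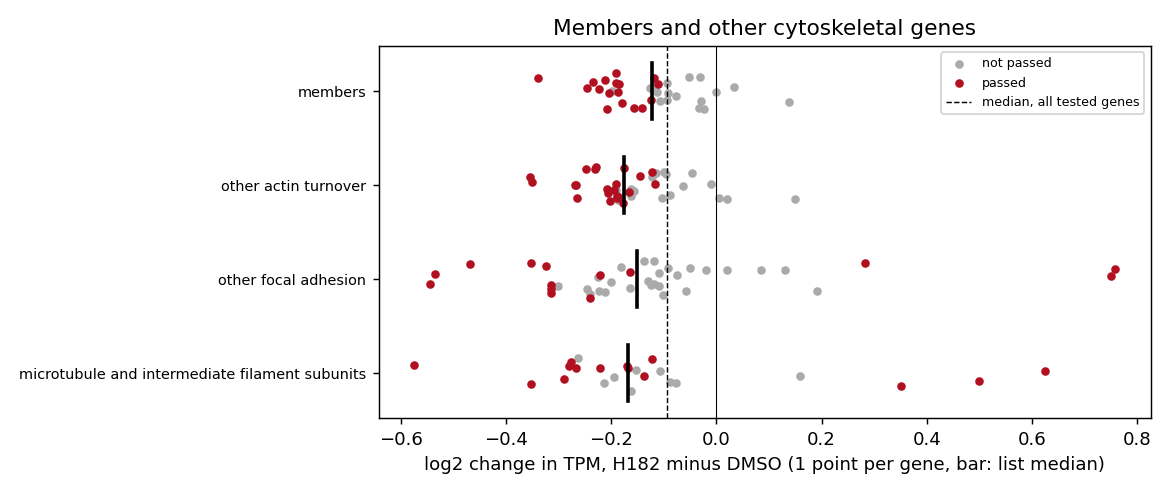
Log2 change in TPM of each tested gene (1 point each, red where it passed) for the members and 3 other lists, with the list median as a bar and the median of all tested genes dashed. Member changes stay between -0.34 and 0.14, while single genes of other lists reach -0.57 and 0.76.

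The labelled cell type was checked against its markers. VIM was at 3430 to 4051 TPM and CD44 at 957 to 1188 TPM, while ESR1 and PGR were at 0.06 TPM or less and CDH1 at 0.28 TPM or less in every library. Other luminal and receptor genes were present, with means over all libraries of 26.9 TPM for ERBB2, 14.2 TPM for EPCAM and 8.51 TPM for GATA3, a luminal transcription factor. GATA3 fell from 10.3 ± 0.883 to 6.75 ± 0.453 TPM (log2 change -0.54, adjusted p = 0.00470), and ERBB2 and EPCAM did not pass. Of 8 mesenchymal-like markers none rose and 5 fell, VIM, CD44, CAV1, CAV2 and AXL (4 with median-of-ratios scaling). The change of CAV1, a caveolar coat protein gene, was -0.35. Of all tested genes 18.7% fell in TPM, and of those at 100 TPM or more 35.2%. With median-of-ratios scaling these shares were 6.79% and 11.6%. The part of the mesenchymal-like markers in the results for the members was not tested. Of 14 muscle-restricted contractile genes, only ACTA2 reached a mean of 1 TPM (1.42 TPM over all libraries), and the list summed to 2.60 to 3.18 TPM in DMSO and to 2.34 to 3.34 TPM in H182. Among 7 haematopoietic and endothelial genes, CD68 was at 138 to 157 TPM and the others at 1.07 TPM or less. HBB was listed at 0 in all libraries.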

How the data were processed

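RNA sequencing of poly-A RNA gave 3 DMSO and 3 H182 libraries of MDA-MB-231. The authors deposited a table of TPM, with 2 decimals, for each gene in each library. STAR 2.5.0, RSEM 1.2.25 and GRCh38 are named in the submitters' processing notes. Annotation, trimming and strand setting are not given in the sources used here. TPM sums to 1000000 per library, so depth is unknown and no counting interval was given. Spike-in rows (92, all at 0) and 24 second rows of genes on X and Y were left out.

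From these, log2(TPM + 1) was fitted with limma 3.58.1 in R 4.3.3 (group only, mean-variance trend, two-sided) for the 12294 genes whose mean reached 1 TPM. Adjusted p-values are Benjamini-Hochberg over all of them. In 10 simulations on 12294 genes, 200 were shifted up or down at random, with independent noise and no shift common to all genes. Of those shifted by 0.5, 57.9% were called, of those shifted by 1, 90.3%, and 4.23% of calls were false. In the data 24% of tested genes were called, mostly lower, and member changes in TPM ran from -0.34 to 0.14. The simulated shares therefore do not give the false or missed share among the calls reported here. Errors after ± are SDs (n = 3 libraries), and standard errors are marked SE. Coordinates and exon numbers come from GENCODE 29 by identifier without its version, and 23 of 35 members had the same version. For ACTB, ACTG1 and VCL the coordinates belong to a later version than the identifier printed beside them. No row was named as a pseudogene of a member.

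Members, gene lists and tests were chosen with earlier results of these data known. Library values were printed for ACTB, ACTG1 and, by rule, members past the threshold with a change of at least 0.3 (VCL); those of other members were added after their values were seen. Of each other list, up to 4 passing genes with the lowest p were named. One of these lists and a marker gene are not reported here. Alternatives covered the pseudocount, filter, scaling, trend, a replicate block and leaving out each library.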

Additional observations from a re-analysis of the deposited data

How the results depend on the processing

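No member rose under any of the 16 alternatives run, and 17 fell in the deposited TPM with all libraries. With median-of-ratios scaling 2 members and 835 genes in all were lower and the members' median was -0.018, and of all calls 46.2% were lower, against 78.0% in TPM. Quantile normalization gave 1261 lower genes (60.2% of calls) and 15 lower members, and moved ACTB to -0.64 and ACTG1 to -0.30. Library totals without 5 heat shock genes gave 1407 lower genes (65.9% of calls), 12 lower members and a members' median of -0.078. Without a filter on low values 10 members and 9.02% of all 19086 genes were lower, and without the mean-variance trend 6 members and 13.6% of all. Leaving out 1 library at a time gave 12 to 16 lower members, a members' median from -0.16 to -0.11, and 1407 to 2205 lower genes in all; the lowest of these, 1407, came without DMSO replicate 2, and 1486 came without H182 replicate 2. The replicate block gave 16 lower members and 2059 lower genes. The numbers were not found to pair the libraries: deviations of same-numbered libraries correlated at -0.036 to 0.0025, and no library correlated best with its own number. The block with median-of-ratios scaling gave 1 lower member (VCL), 613 lower genes and a members' median of -0.018. VCL passed in all 16 alternatives and CAPZA1 in 15. No called member changed sign. Among members that did not pass, MYL6, CALD1, MYL9, FHL1, FLNA, TLN1, FHL2, CNN3, MYL12B, TAGLN and ZYX changed sign under at least 2 alternatives. For these shifts the cause was not tested. With depth unknown, what could be detected was judged from the spread between 3 libraries in each group. The calls also depended on the scaling, filter and trend chosen.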
